A study of Mus musculus with 30 samples.

Results

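The genes of cholesterol handling in the liver were followed as 1 group: the enzymes that build cholesterol, the proteins that sense sterols and set the activity of those enzymes' genes, and the proteins that take cholesterol up, export it or store it. The group was given as a list of 32 gene symbols, and all 32 were found in a count table of 55487 genes. By role it held 20 synthesis enzymes, 5 genes of sterol sensing and regulation, 2 of uptake, 4 of efflux and 1 of esterification. RNA sequencing was done on livers of male C57BL/6 mice that were 8 weeks old and were kept for 6 weeks on a regular chow diet (RCD) or on a diet deficient in methionine and choline (MCD), which is used to provoke fatty liver with inflammation. From week 4 to week 6 the mice received, at 2 doses a week, a mouse IgG2a isotype control (IgG) or a monoclonal antibody against ACBP/DBI (anti-DBI), a secreted acyl-CoA-binding protein. There were 5 libraries of RCD IgG, 5 of RCD anti-DBI, 10 of MCD IgG and 10 of MCD anti-DBI. All 4 groups had an antibody, so no group was untreated, and the nearest comparison to chow without neutralization is RCD IgG.

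Cholesterol is made from acetyl-CoA through mevalonate, isoprenoid diphosphates, squalene and lanosterol. Cells tune this route through SREBP-2, a membrane-bound transcription factor that the escort protein SCAP carries from the endoplasmic reticulum when membrane sterols are low and that INSIG proteins hold back when sterols are high. The released factor switches on most genes of the route and INSIG1 itself. Sterol excess acts through another set of genes, the liver X receptor targets, which include the ABC transporters that export cholesterol to lipoproteins or bile.

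The stretches of genome before the start sites were read from the RefSeq promoter table of mouse build GRCm38.p6, because many genes of this route are known to share SREBP and NF-Y binding there. The table held 25 of the 32 genes with 32 start sites, and the 250 bases before each start were searched on both strands for CCAAT (the NF-Y box), CACNCCAC (the core of a sterol regulatory element) and CACGTG (the E-box). None of the 3 motifs is part of another. CCAAT stood before at least 1 start of 21 of the 25 genes, including 16 of the 17 synthesis enzymes matched. Counted by start site it was found before 21 of 32 starts (65.6%), against 33.8% of all 32851 starts in the table. CACNCCAC was found before 3 of 32 starts (9.38%, against 5.29% of all starts), those of Acat2, Hmgcs1 and Insig1. CACGTG was found before 6 of 32 starts (18.8%, against 6.02% of all starts). A match describes letters in this window and not a bound site. The 4 stretches printed here were chosen as follows: Hmgcs1, Acat2 and Insig1 because they hold the sterol regulatory element core in the bases searched, and the bases between the starts of Abcg5 and Abcg8 because those genes, whose products form 1 transporter together, start back to back there. Capitals mark matches to the 3 motifs on either strand (ATTGG is CCAAT read on the other strand). The Insig1 and Acat2 stretches stop where the Ensembl gene begins, so the Insig1 match to CACNCCAC, nearer its RefSeq start, is not among the bases printed.
Hmgcs1, chr13:119690101-119690350, plus strand: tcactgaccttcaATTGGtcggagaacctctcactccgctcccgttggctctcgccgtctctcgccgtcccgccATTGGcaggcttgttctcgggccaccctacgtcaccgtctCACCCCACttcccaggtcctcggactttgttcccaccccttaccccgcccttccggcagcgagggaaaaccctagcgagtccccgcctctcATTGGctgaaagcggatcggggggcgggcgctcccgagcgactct
Acat2, chr17:12960748-12960975, minus strand: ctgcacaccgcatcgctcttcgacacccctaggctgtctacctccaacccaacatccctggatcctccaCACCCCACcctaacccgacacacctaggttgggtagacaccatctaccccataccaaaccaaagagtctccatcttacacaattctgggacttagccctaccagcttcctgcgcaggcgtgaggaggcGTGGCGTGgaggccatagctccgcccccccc
Insig1, chr5:28071162-28071362, plus strand: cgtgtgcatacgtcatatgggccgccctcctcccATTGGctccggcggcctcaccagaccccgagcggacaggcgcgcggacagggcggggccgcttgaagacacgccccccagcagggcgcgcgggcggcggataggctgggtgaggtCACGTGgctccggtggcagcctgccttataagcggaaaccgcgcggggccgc
Between Abcg5 and Abcg8, chr17:84683012-84683120, plus strand: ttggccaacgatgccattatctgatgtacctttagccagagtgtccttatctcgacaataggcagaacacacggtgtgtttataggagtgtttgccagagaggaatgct
In the Hmgcs1 stretch the sterol regulatory element core begins 136 bases before the start and is flanked by 3 CCAAT boxes. The RefSeq starts of Abcg5 and Abcg8 are separated by 109 bases, in which none of the 3 motifs was found. In the Ensembl annotation behind the counts, Abcg8 begins further upstream, inside the span of Abcg5.

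**Figure D1:**
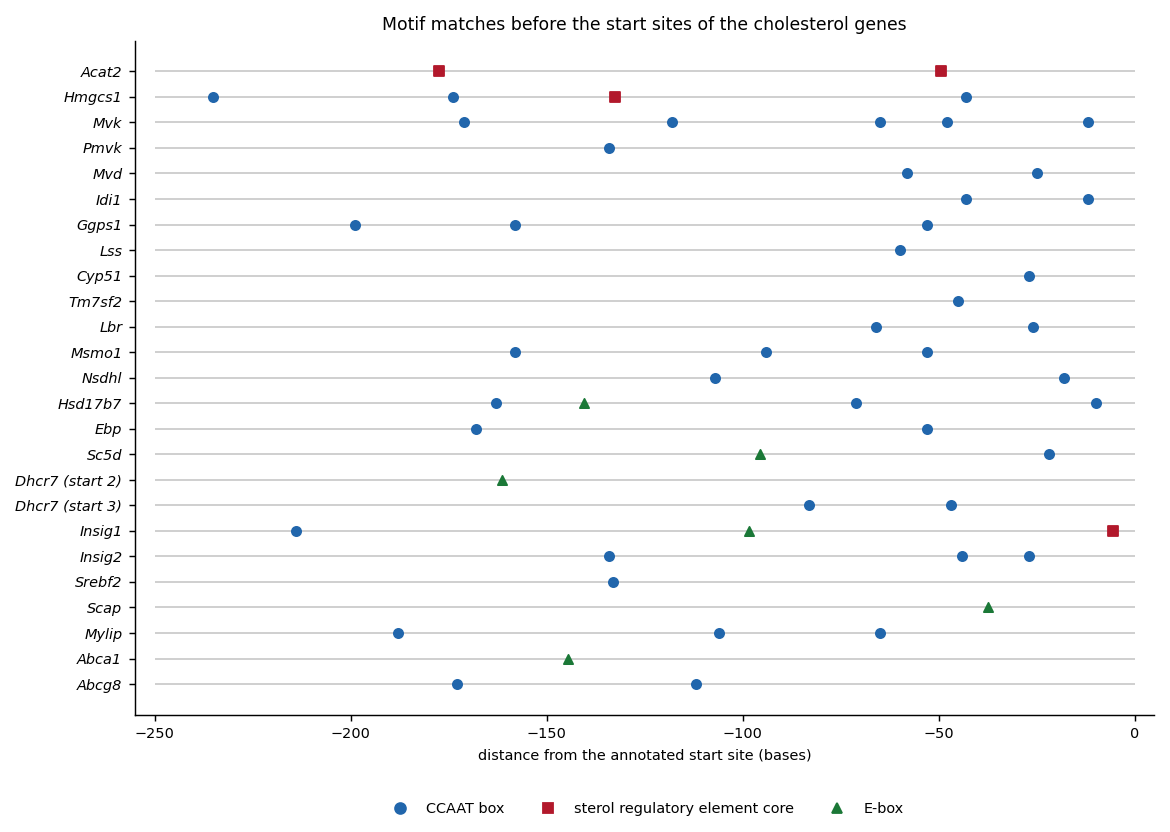
Positions of matches to 3 motifs in the 250 bases before the annotated start sites (horizontal axis, bases from the start at 0) of the genes that have at least 1 match (1 line per start site). Circles are CCAAT boxes, squares the sterol regulatory element core and triangles E-boxes; CCAAT boxes stand before 21 of the 25 genes in the promoter table.

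The libraries held 8.36 to 21.67 M counts (M stands for 1e+06), and every one of the 32 genes passed the filter on low counts in every comparison (the lowest count in any library was 55, for Fdps). Levels are given as CPM (counts in every 1e+06 counts) after TMM scaling over the 30 libraries, and differences as log2 fold changes with their standard errors (SE) from edgeR's quasi-likelihood test on the raw counts. A gene is said to have risen or fallen where its Benjamini-Hochberg adjusted p, taken over all genes tested, was under 0.05. The labels number the libraries within each group without saying more of their source, so the p-values measure the spread between these samples. The 6 hepatocyte markers measured (Alb, Apoa1, Ttr, Serpina1a, Cps1 and Fgb) summed to at least 70999 CPM in every library. The median depth was 11.33, 13.2, 12.93 and 17.99 M counts in RCD IgG, RCD anti-DBI, MCD IgG and MCD anti-DBI. The most similar libraries of any group were numbers 5 and 10 of MCD anti-DBI, in which 8 of 9440 genes differed by over 1.5-fold, against at least 133 in every other such pair. The chi-square of their counts was 1.67 for each degree of freedom, against at least 6.45 in every other such pair. This is more than sampling noise, so they were not counted as 1 library, but whether they come from the same animal cannot be told from the labels or the counts. Both were kept, and the calls that change when they are summed are given. MCD anti-DBI 6, 8 and 9 and MCD IgG 2 stood apart in the other direction, each differing by over 1.5-fold from its group's other libraries in a median of 1229 to 1548 genes. Leaving out MCD IgG 2 changed no call among the 32 genes in any comparison, and the values without the other 3 are given where they bear on a result. The comparisons are not independent of each other: MCD IgG is the treated group of the diet comparison and the control group of the antibody comparison, and RCD IgG is the control in 3 comparisons. In whole liver, fewer cells of a type and less RNA per cell cannot be told apart.

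**Figure D2:**
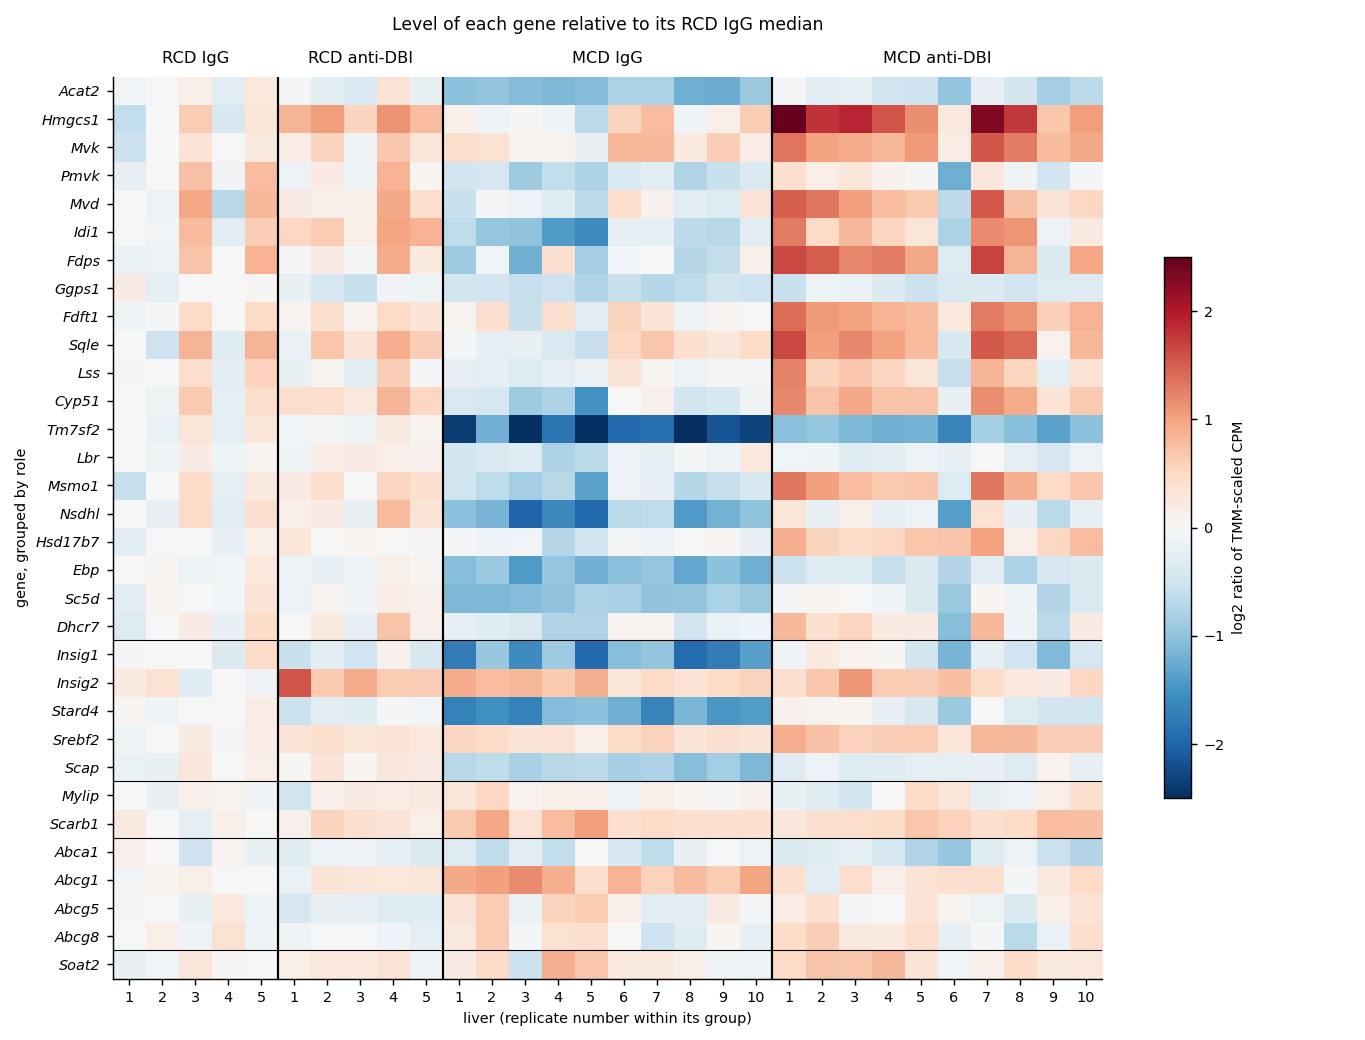
Level of each of the 32 genes (rows, grouped by role) in each of the 30 livers (columns, by group and replicate number), as the log2 ratio of its TMM-scaled CPM to the median of the RCD IgG livers. Most synthesis genes are below that median in MCD IgG (blue) and many are above it in MCD anti-DBI (red), where liver 6 is paler or bluer than the rest.

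The first comparison asked what the MCD diet did in mice given IgG. Over the 32 genes 14 fell and 4 rose, where 27.2% of the 13672 genes tested fell and 29.9% rose. Synthesis genes fell and none rose: of the 20 enzymes 11 were lower in MCD IgG than in RCD IgG, with a median log2 fold change of -0.57 over the 20 against 0.03 over all genes tested. The regulators split, as Insig1, Stard4 and Scap fell while Insig2 and Srebf2 rose. Scarb1 (uptake) and Abcg1 (efflux) rose, and the other efflux genes, Mylip and Soat2 did not pass the test.

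The largest fall was in Tm7sf2 (ENSMUSG00000024799, chromosome 19, 6062821 to 6068373, GRCm38), which encodes a sterol reductase of the late pathway. RCD IgG livers 1 to 5 had 127.3, 113.2, 156.3, 107.7 and 158.0 CPM of it. The 10 MCD IgG livers ran from 13.1 to 55.1 CPM with a median of 27.1. All MCD IgG livers were below all RCD IgG livers (log2 fold change -2.20 ± 0.23 SE, edgeR adjusted p = 2.95e-07). Its gene shares 532 bases with Vps51 on the same strand.

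Ebp, the isomerase that shifts a double bond of the sterol ring, was at 191.5, 197.3, 174.3, 181.6 and 231.3 CPM in the RCD IgG livers and between 71.4 and 101.3 CPM (median 91.8) in MCD IgG. The groups did not overlap, and Ebp had the smallest p of the 32 genes (log2 fold change -1.12 ± 0.09 SE, edgeR adjusted p = 5.44e-09). Acat2, the thiolase of the first step, was at 68.7, 71.6, 80.0, 59.7 and 85.7 CPM in RCD IgG and at 30.4 to 41.5 CPM (median 34.5) in MCD IgG. It too showed no overlap (log2 fold change -1.04 ± 0.09 SE, adjusted p = 2.42e-08).

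Sc5d, the desaturase of a late step, fell from 493.6, 624.0, 596.2, 565.4 and 747.2 CPM to between 274.8 and 347.3 CPM (median 300.2; log2 fold change -0.97 ± 0.09 SE). Every MCD IgG liver was again below every RCD IgG liver. The other enzymes that fell were Nsdhl (-1.29), Idi1 (-0.96), Pmvk (-0.83), Fdps (-0.62), Cyp51 (-0.59), Msmo1 (-0.59) and Ggps1 (-0.56 on the log2 scale). Pmvk acts in mevalonate phosphorylation, Idi1 and Fdps in isoprenoid assembly, and Cyp51, Msmo1 and Nsdhl in the removal of methyl groups from lanosterol, while Ggps1 opens the branch to geranylgeranyl lipids. The genes that carry the route from farnesyl diphosphate through squalene to lanosterol (Fdft1, Sqle and Lss) had log2 fold changes of -0.04, -0.12 and -0.26 and did not pass. Hmgcs1, a synthase upstream of mevalonate, and Mvk had log2 fold changes of 0.14 ± 0.22 and 0.36 ± 0.17 SE and did not pass. The call of Fdps (adjusted p = 0.0356) was lost without RCD IgG 3 or 5 or MCD IgG 1, 5, 8 or 9 (adjusted p of 0.0515 to 0.148), and that of Cyp51 without RCD IgG 3 (0.086) or 5 (0.0573).

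Among the regulators, Stard4, which carries sterols between membranes, was at 179.4, 162.4, 172.7, 172.5 and 197.5 CPM in RCD IgG and between 53.7 and 84.8 CPM (median 64.1) in MCD IgG. The lowest RCD IgG liver was well above the highest MCD IgG liver (log2 fold change -1.39 ± 0.11 SE, edgeR adjusted p = 6.47e-09). Insig1 was at 396.6, 406.7, 408.5, 316.2 and 566.3 CPM in RCD IgG and between 106.0 and 217.5 CPM (median 147.9) in MCD IgG. Its groups did not overlap either (log2 fold change -1.40 ± 0.18 SE, adjusted p = 2.89e-06). Scap fell from 160.7, 159.1, 220.0, 180.8 and 203.2 CPM to between 82.95 and 116.2 CPM (median 104.5; log2 fold change -0.83 ± 0.09 SE).

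Insig2, the paralogue of Insig1, went the other way. It was at 74.0, 81.6, 49.9, 62.7 and 58.8 CPM in RCD IgG and between 76.9 and 118.8 CPM (median 95.1) in MCD IgG. All but 2 of the 10 were above the highest RCD IgG liver (log2 fold change 0.59 ± 0.12 SE, edgeR adjusted p = 0.000389). Srebf2, which encodes SREBP-2, was at 57.7, 62.3, 73.2, 61.0 and 70.9 CPM in RCD IgG and at 69.9 to 92.4 CPM (median 81.6) in MCD IgG, with some overlap (log2 fold change 0.36 ± 0.08 SE, adjusted p = 0.000807).

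Scarb1, the receptor that takes cholesterol esters from high density lipoprotein, rose from 186.4, 159.0, 136.5, 175.2 and 160.2 CPM to between 205.1 and 330.9 CPM (median 219.6) with no overlap (log2 fold change 0.59 ± 0.12 SE, edgeR adjusted p = 0.000403). Abcg1, which exports cholesterol to mature high density lipoprotein, was at 10.6, 11.9, 12.3, 11.1 and 11.1 CPM in RCD IgG and at 14.7 to 25.3 CPM (median 20.6) in MCD IgG. Its groups were separate as well (log2 fold change 0.82 ± 0.11 SE, adjusted p = 6.41e-06). Abcg1 is expressed in macrophages too, and macrophage markers moved with the same groups: 4 of 6 rose (Cd68, Trem2, Gpnmb and Lyz2). The summed level of all 6 was 151.2 to 211.4 CPM in RCD IgG and 240.6 to 1666 CPM in MCD IgG. Of the 6 hepatocyte markers, 3 fell (Cps1, Ttr and Serpina1a), and the sum of all 6 was 98967 to 122951 CPM in RCD IgG and 70999 to 128695 CPM in MCD IgG. Other lists moved too. Of the 4 markers of Kupffer cells, the resident liver macrophages, 2 fell (Clec4f and Timd4), with summed levels of 221.9 to 299.5 CPM in RCD IgG and 152.4 to 345.9 CPM in MCD IgG. Of the 5 endothelial markers 4 fell (sums of 228.1 to 262.4 and 108.9 to 161.7 CPM), and of the 5 stellate cell markers 3 rose (sums of 85.4 to 160.8 and 116 to 246 CPM). Each marker sum, here and below, was taken over the whole list. None of these markers was at 0 in all livers of a group, and their part in the result was not tested.

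**Figure D3:**
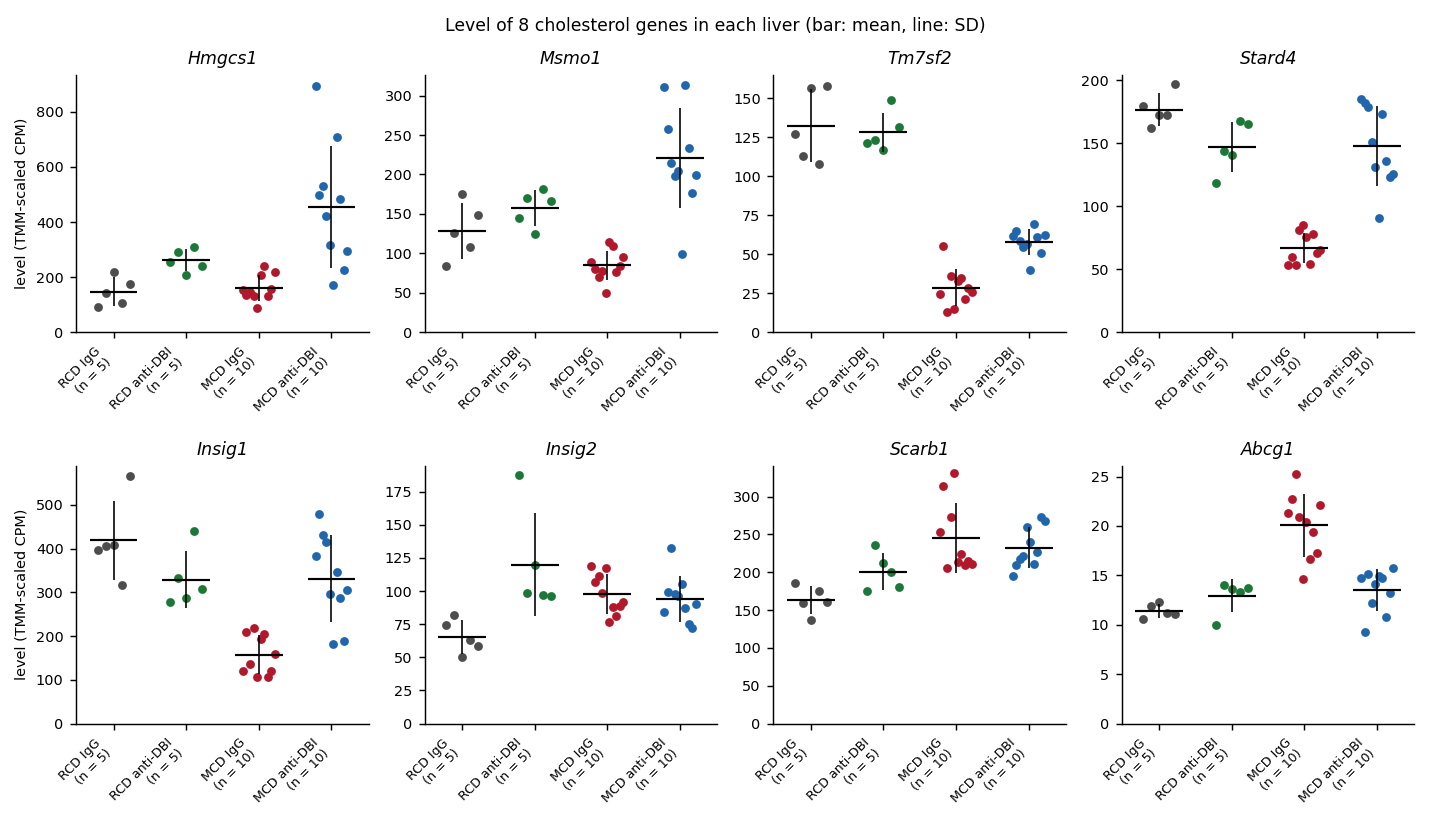
TMM-scaled CPM (vertical axes, from 0) of 8 genes in every liver of the 4 groups (points), with the mean (bar) and SD (line); n is 5, 5, 10 and 10. Tm7sf2 in MCD IgG and in MCD anti-DBI lies below RCD IgG in every liver, whereas Hmgcs1 reaches 894.9 CPM in MCD anti-DBI.

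The second comparison asked what neutralization of DBI did under the MCD diet. In all, 23 of the 32 genes rose and 1 fell, where 20.4% of the 13538 genes tested rose and 21.7% fell. Nearly the whole synthesis route was higher in MCD anti-DBI than in MCD IgG: 19 of 20 enzymes rose, Lbr being the exception, and the median log2 fold change of the 20 was 0.80 against -0.02 over all genes tested. Insig1, Stard4, Scap and Srebf2 rose, Abcg1 fell, and the remaining uptake, efflux and esterification genes and Insig2 did not pass.

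Hmgcs1 (ENSMUSG00000093930, chromosome 13, 119690379 to 119708260) had the largest log2 fold change of the 32, 1.48 ± 0.25 SE (edgeR adjusted p = 6.85e-05). It was between 88.7 and 240.5 CPM (median 149.7) in MCD IgG and between 170.0 and 894.9 CPM (median 453.4) in MCD anti-DBI, so that the groups overlapped at the lower end of the latter. Msmo1, the oxidase of the steps that remove methyl groups from the sterol ring, was between 49.8 and 114.3 CPM (median 82.2) in MCD IgG and between 98.9 and 313.5 CPM (median 209.5) in MCD anti-DBI. Only the lowest MCD anti-DBI liver fell inside the MCD IgG range (log2 fold change 1.37 ± 0.17 SE, adjusted p = 2.21e-06).

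Ebp was at 71.4 to 101.3 CPM in MCD IgG and at 112.1 to 160.5 CPM (median 145.8) in MCD anti-DBI, with no overlap (log2 fold change 0.64 ± 0.08 SE, edgeR adjusted p = 2.07e-06). Hsd17b7, the keto reductase of the methyl removal steps, was at 39.7 to 66.8 CPM (median 61.8) in MCD IgG and at 72.8 to 131.1 CPM (median 99.9) in MCD anti-DBI, again without overlap (log2 fold change 0.79 ± 0.10 SE, adjusted p = 4.29e-06). The other enzymes with log2 fold changes of 1 or more were Fdps (1.38), Idi1 (1.30), Cyp51 (1.16), Nsdhl (1.04) and Tm7sf2 (1.00). Mvd, Sqle, Fdft1, Sc5d, Mvk, Lss, Acat2, Pmvk, Dhcr7 and Ggps1 rose by 0.20 to 0.98. Fdft1, the squalene synthase gene, shares 774 bases with the heavily counted Ctsb on the opposite strand. Ggps1 shares 257 bases with Arid4b, also on the opposite strand, which had 6232 counts over the 30 libraries against 4290 for Ggps1. Longer stretches are shared by Fdps (7512 bases with Gm43738, same strand) and Mvd (9822 bases with Galnt2l, opposite strand). Both of these protein-coding partners had 0 counts over the 30 libraries. The library kit named in the labels does not mark strand, and the part of these overlaps in the counts was not tested.

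Stard4 had the smallest p of the 32 genes, with 53.7 to 84.8 CPM in MCD IgG and 90.9 to 185.5 CPM (median 143.5) in MCD anti-DBI. The groups did not overlap (log2 fold change 1.13 ± 0.12 SE, edgeR adjusted p = 5.97e-07). Scap followed, with 82.95 to 116.2 CPM against 143.2 to 191.6 CPM (median 153.0), also without overlap (0.58 ± 0.07 SE, adjusted p = 1.52e-06). Insig1 was between 182.1 and 479.5 CPM (median 325.0) in MCD anti-DBI and overlapped with MCD IgG (log2 fold change 1.06 ± 0.18 SE, adjusted p = 9.29e-05). Srebf2 was between 77.2 and 116.4 CPM (median 95.8) in MCD anti-DBI, a smaller difference (log2 fold change 0.25 ± 0.07 SE, adjusted p = 0.00467).

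Abcg1 was between 9.23 and 15.8 CPM (median 14.4) in MCD anti-DBI, where MCD IgG had 14.7 to 25.3 CPM. The ranges overlapped, with 5 of the 10 MCD anti-DBI livers below the lowest MCD IgG liver. The log2 fold change was -0.58 ± 0.10 SE (edgeR adjusted p = 0.000122). In the same comparison 5 of 6 macrophage markers fell, Gpnmb being the one that did not pass. The summed level of all 6 in MCD anti-DBI was 172.9 to 1026 CPM. Of the 6 hepatocyte markers 5 rose, Apoa1 being the one that did not pass, with a median log2 fold change of 0.48 over the 6 and a summed level of 114343 to 170427 CPM in MCD anti-DBI. Of the 5 stellate cell markers 2 fell, and of the 5 endothelial markers 1 rose and 1 fell. The 4 Kupffer cell markers did not pass. The part of these lists in the results for Abcg1 and for the synthesis genes was not tested.

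**Figure D4:**
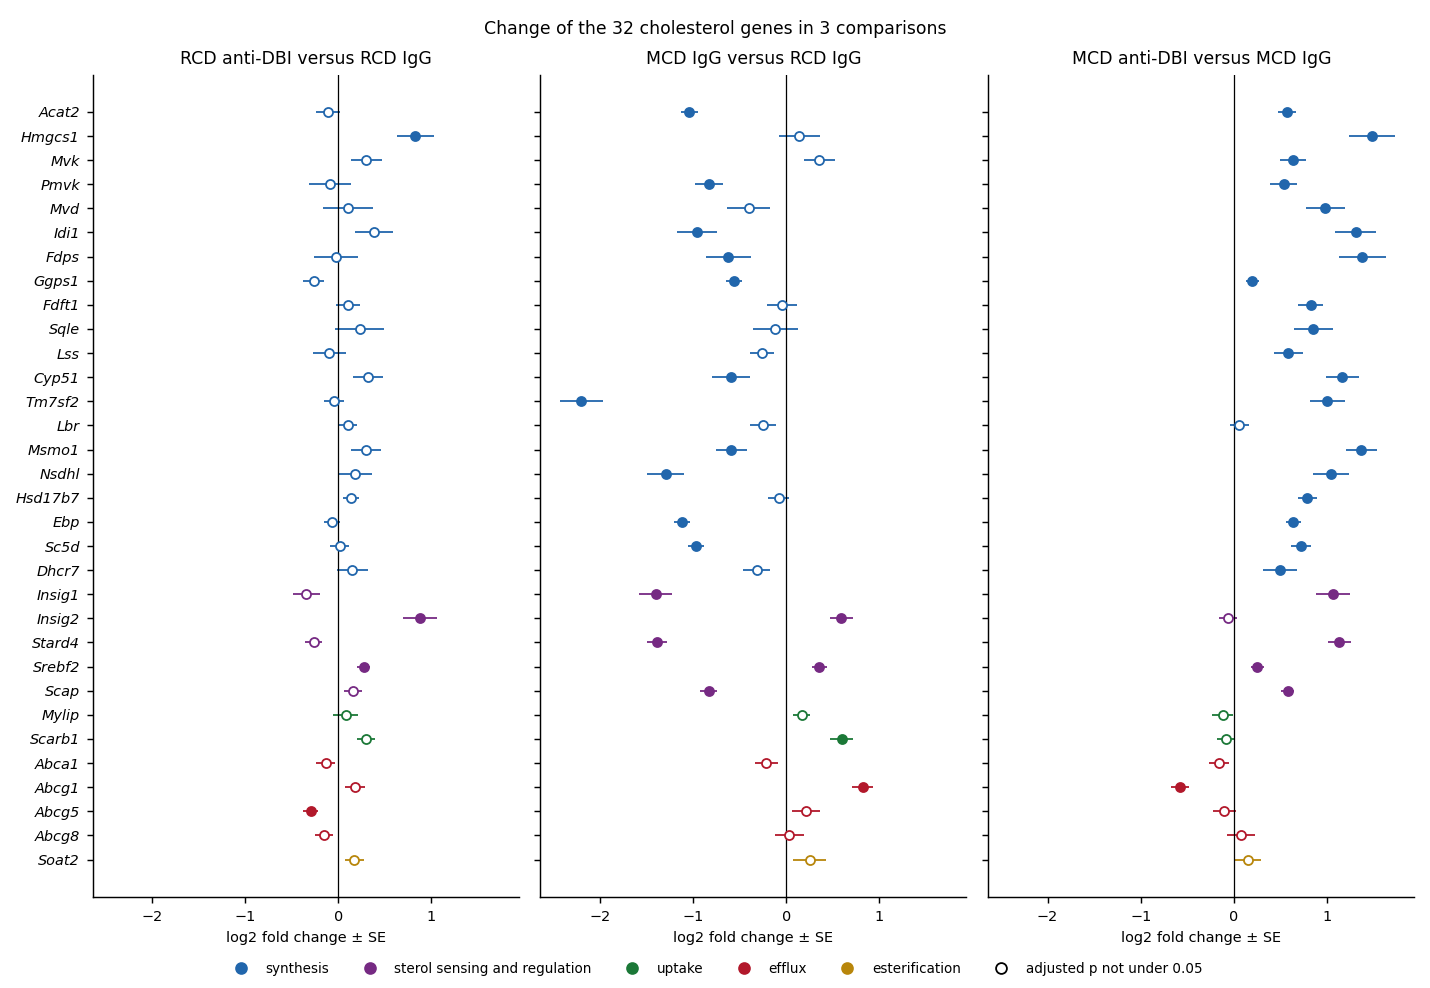
Log2 fold change with its SE (horizontal axis, lines) of the 32 genes (rows) in 3 comparisons (panels), coloured by role; filled points passed at an adjusted p under 0.05 and open points did not. In MCD anti-DBI versus MCD IgG all 20 synthesis points lie right of 0 and 19 are filled, while 11 synthesis points are filled left of 0 in MCD IgG versus RCD IgG.

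Within MCD anti-DBI the synthesis genes were high or low together by liver. Liver 7 had the highest level of 10 of the 20 genes and was above the group median in 20, and liver 1 was the highest in 8. Liver 6 was the lowest in 15 of 20 and above the median in 1, and liver 9 was above the median in 1. Summed over the 20 genes, the level was 1354 CPM in liver 6, 1738 CPM in liver 9, 3373 CPM in liver 7 and 3564 CPM in liver 1, against 1041 to 1606 CPM in MCD IgG. Liver 6 also had the highest macrophage sum (1026 CPM) and the lowest hepatocyte sum (114343 CPM) of its group, while liver 9 had 210.3 and 143315 CPM. Without liver 6, 8 or 9 in turn, 23 of the 32 genes rose and 1 fell each time. The calls of Dhcr7 (adjusted p = 0.037) and Ggps1 (0.0254) were the ones lost on leaving out a library: Dhcr7 without any of MCD IgG 3, 4, 5 and 8 and MCD anti-DBI 1, 2, 3 and 7 (adjusted p of up to 0.0776), and Ggps1 without MCD anti-DBI 2 (0.0535) or 3 (0.0516). In the other groups the livers ran in step as well: RCD IgG 5 was above its group's median in 20 of 20 synthesis genes, and RCD anti-DBI 4 was the highest of its group in 18.

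**Figure D5:**
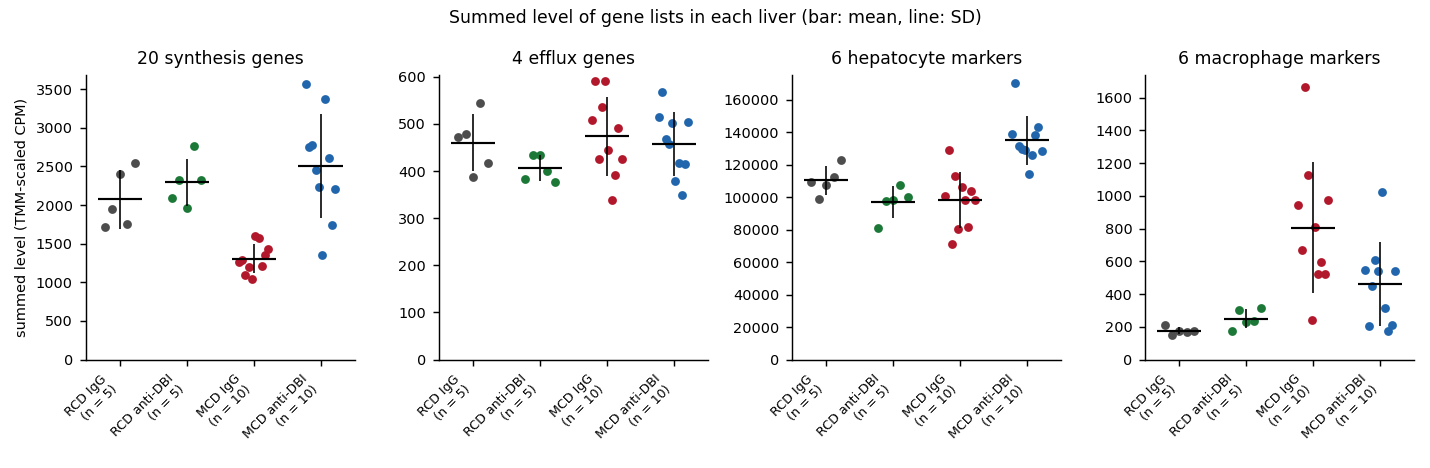
Summed TMM-scaled CPM (vertical axes, from 0) of the 20 synthesis genes, the 4 efflux genes, 6 hepatocyte markers and 6 macrophage markers in every liver (points), with the mean (bar) and SD (line) of each group. The synthesis sum is 1041 to 1606 CPM in MCD IgG and 1354 to 3564 CPM in MCD anti-DBI, whereas the efflux sum spans 337.9 to 592.2 and 348.5 to 567.7 CPM.

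On chow the antibody moved few of the genes. Insig2, Hmgcs1 and Srebf2 were higher in RCD anti-DBI than in RCD IgG and Abcg5 was lower. Of 32 genes 3 rose and 1 fell, where 2.93% of the 12699 genes tested rose and 3.15% fell. Over the 20 synthesis genes the median log2 fold change was 0.11, and 1 passed. Of the 4 Kupffer cell markers 2 rose, with sums of 221.9 to 299.5 CPM in RCD IgG and 256.7 to 417.7 CPM in RCD anti-DBI. Of the 4 macrophage markers that passed the filter 1 rose, and of the 6 hepatocyte markers 1 rose and 1 fell. The 5 endothelial and 5 stellate cell markers did not pass. The part of these lists in the chow results was not tested.

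Insig2 (ENSMUSG00000003721, chromosome 1, 121304353 to 121332589) was at 74.0, 81.6, 49.9, 62.7 and 58.8 CPM in RCD IgG and at 187.6, 98.5, 119.8, 97.3 and 96.5 CPM in RCD anti-DBI. Every anti-DBI liver was above every IgG liver, with liver 1 far above the rest (log2 fold change 0.88 ± 0.18 SE, edgeR adjusted p = 0.011). Without RCD anti-DBI 1 the log2 fold change was 0.66, and the gene passed on leaving out each of the 10 libraries in turn (adjusted p of 0.00552 to 0.0386).

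Hmgcs1 was at 92.0, 141.7, 219.4, 106.9 and 175.5 CPM in RCD IgG and at 256.6, 292.3, 208.7, 308.3 and 241.1 CPM in RCD anti-DBI. The groups overlapped by 1 liver on each side (log2 fold change 0.83 ± 0.20 SE, edgeR adjusted p = 0.0235), and the call was lost without RCD IgG 2 (adjusted p = 0.0522), RCD IgG 4 (0.0553) or RCD anti-DBI 2 (0.0603). Srebf2 was at 57.7, 62.3, 73.2, 61.0 and 70.9 CPM and at 78.0, 84.5, 76.8, 78.5 and 75.2 CPM. Its groups were separate but close (log2 fold change 0.27 ± 0.07 SE, adjusted p = 0.0409), and it passed on leaving out 2 of the 10 libraries, RCD IgG 3 and 5, with adjusted p of up to 0.104 on leaving out the others.

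Abcg5, which with Abcg8 exports sterols into bile, was at 141.3, 138.2, 121.6, 166.1 and 128.9 CPM in RCD IgG and at 102.7, 121.7, 120.6, 110.8 and 111.6 CPM in RCD anti-DBI. The groups barely overlapped (log2 fold change -0.30 ± 0.08 SE, edgeR adjusted p = 0.0483), and the call held without RCD IgG 3 and was lost on leaving out any of the other 9 libraries (adjusted p of 0.0628 to 0.0989). Its partner Abcg8 had a log2 fold change of -0.15 ± 0.09 SE and did not pass. In the annotation used for counting, the spans of these genes share 6710 bases on opposite strands, and how far their exons overlap was not tested.

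The interaction term asked whether the antibody's effect differed between the diets. It passed as positive, with a higher anti-DBI effect on MCD than on RCD, in 14 of the 32 genes and as negative in 2. Of the 14335 genes tested 10.6% passed as positive and 8.63% as negative. By sign alone 24 of the 32 were above 0 and 8 below, where 7209 of all genes were above 0 and 7126 below. Counts of positive and negative genes here are of those that passed. Over all genes 1515 of 2752 calls were positive, and with upper-quartile scaling 1076 of 2749. The 14 were 11 synthesis enzymes with Insig1, Stard4 and Scap. Of the 6 hepatocyte markers 4 were also positive (Cps1, Ttr, Alb and Serpina1a; median 0.54 over the 6), and of the 6 macrophage markers 4 were negative (Adgre1, Csf1r, Lyz2 and Cd68; median -1.10 over the 6), and their part in the result was not tested. Stard4 had the smallest p: it was at 118.8, 143.8, 140.7, 167.6 and 165.5 CPM in RCD anti-DBI, mostly below RCD IgG, and passed as higher under MCD but not under RCD (interaction 1.41 ± 0.19 SE on the log2 scale, edgeR adjusted p = 1.55e-05). Ebp had an interaction of 0.72 ± 0.13 SE (adjusted p = 0.000265), its RCD anti-DBI livers being at 175.0, 165.3, 178.2, 211.5 and 198.6 CPM. Insig1 had an interaction of 1.42 ± 0.29 SE (adjusted p = 0.00102), its RCD anti-DBI livers being at 277.6, 333.0, 287.4, 440.7 and 308.2 CPM.

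Insig2 had a negative interaction (-0.93 ± 0.21 SE, edgeR adjusted p = 0.00207), as it rose with anti-DBI on RCD and had a log2 fold change of -0.07 ± 0.10 SE on MCD, where MCD anti-DBI was at 72.5 to 132.7 CPM (median 93.1). Abcg1 was the other negative gene (-0.75 ± 0.17 SE, adjusted p = 0.00223), with RCD anti-DBI livers at 9.98, 14, 13.6, 13.4 and 13.8 CPM. Hmgcs1, which rose with anti-DBI on both diets, had an interaction of 0.67 ± 0.39 SE (adjusted p = 0.235), and Srebf2 one of -0.01 ± 0.11 SE (adjusted p = 0.959). Without MCD anti-DBI 6, 18 genes were positive, Mvd, Pmvk, Lss and Idi1 being added, and without MCD anti-DBI 9, 16 were, Lss and Idi1 being added. With MCD anti-DBI 5 and 10 summed, 13 were positive, Nsdhl being lost (adjusted p = 0.054). The calls of Nsdhl (adjusted p = 0.0475), Cyp51 (0.0311) and Fdft1 (0.0223) were lost without 1 or more libraries, Fdft1 without RCD IgG 3 (0.0508) or 5 (0.0559), Cyp51 without those or RCD anti-DBI 2 or 3 (up to 0.0789), and Nsdhl on all but 9 of the 30 omissions (up to 0.101).

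MCD anti-DBI set against RCD IgG shows where the levels stood under both diet and antibody. Of the 32 genes 10 were higher than in RCD IgG and 6 lower, where 18.4% of the 13912 genes tested were higher and 18.1% lower. The share of the 32 that was lower was thus close to that of all genes. Of the synthesis enzymes 6 were higher (Hmgcs1, Mvk, Fdft1, Cyp51, Msmo1 and Hsd17b7) and 4 lower (Tm7sf2, Acat2, Ebp and Ggps1). Srebf2, Insig2, Scarb1 and Soat2 were also higher, and Scap and Abca1 lower. Without MCD anti-DBI 6, or without 9, 12 genes were higher, Sqle and Fdps being added.

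Tm7sf2 had the smallest p, at 39.8 to 69.7 CPM (median 59.5) in MCD anti-DBI with every liver below every RCD IgG liver (log2 fold change -1.19 ± 0.11 SE, edgeR adjusted p = 5e-07). Acat2 was at 36.0 to 70.5 CPM (median 51.2; log2 fold change -0.47 ± 0.13 SE) and Ebp at 112.1 to 160.5 CPM (-0.48 ± 0.09 SE). Ggps1 was at 14.96, 11.01, 12.9, 12.9 and 13.2 CPM in RCD IgG, at 7.64 to 9.41 CPM (median 8.86) in MCD IgG and at 8.72 to 11.8 CPM (median 10.1) in MCD anti-DBI (log2 fold change against RCD IgG -0.36 ± 0.09 SE). These 4 genes thus lay between MCD IgG and RCD IgG by their medians.

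Hmgcs1 was the gene furthest above RCD IgG (log2 fold change 1.63 ± 0.34 SE, edgeR adjusted p = 0.00126), followed by Mvk, which reached 18.6 to 48.2 CPM against 11.2 to 20.8 CPM (log2 fold change 0.99 ± 0.18 SE). Srebf2 was higher with no overlap (0.61 ± 0.09 SE, adjusted p = 4.4e-05), as was Hsd17b7, whose RCD IgG livers were at 53.4, 65.7, 65.1, 56.4 and 72.0 CPM (0.71 ± 0.12 SE, adjusted p = 0.000155). Scarb1 was at 194.7 to 273.1 CPM (median 224.3), above all RCD IgG livers (0.51 ± 0.09 SE, adjusted p = 0.000291), and its log2 fold change between MCD anti-DBI and MCD IgG was -0.09 ± 0.09 SE.

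Abca1, the transporter that loads cholesterol on lipid-poor apolipoprotein, was the efflux gene that was lower. It was at 148.2, 135.2, 94.9, 141.7 and 119.0 CPM in RCD IgG, at 109.7, 124.7, 127.5, 114.3 and 104.9 CPM in RCD anti-DBI, at 86.9 to 136.0 CPM (median 110.5) in MCD IgG and at 69.9 to 122.4 CPM (median 103.3) in MCD anti-DBI. All 4 groups overlapped (log2 fold change of MCD anti-DBI against RCD IgG -0.37 ± 0.13 SE, edgeR adjusted p = 0.029). Its call was lost without RCD IgG 1 (0.0935), 2 (0.0679) or 4 (0.0813), as was that of Cyp51 (0.0709, 0.0784 and 0.0853). The call of Soat2, the enzyme that makes cholesterol esters in hepatocytes (log2 fold change 0.41 ± 0.13 SE, adjusted p = 0.0203), was lost without RCD IgG 1 (0.0626) or 2 (0.0538), and that of Scap, at 143.2 to 191.6 CPM (median 153.0) against 159.1 to 220.0 CPM in RCD IgG (log2 fold change -0.25 ± 0.08 SE, adjusted p = 0.0276), without RCD IgG 3 (0.101) or 5 (0.077).

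Lbr, Mylip and Abcg8 passed in none of the 5 comparisons as fitted, although each passed in 1 comparison under another setting (Lbr and Mylip in the diet comparison, Abcg8 in MCD anti-DBI against RCD IgG). Lbr, whose product has sterol reductase activity like that of Tm7sf2, was at 12.4 ± 1.17, 13.3 ± 1.14, 10.2 ± 2.21 and 10.8 ± 0.93 CPM (mean ± SD) in RCD IgG, RCD anti-DBI, MCD IgG and MCD anti-DBI (n = 5, 5, 10 and 10). Mylip, a ubiquitin ligase that marks lipoprotein receptors for breakdown, was at 13.3 ± 1.12, 14.1 ± 2.65, 14.9 ± 1.84 and 13.7 ± 3.05 CPM in the same order. Abcg8 was at 181.5 ± 28.2, 163.2 ± 11.1, 184.5 ± 45.6 and 194.9 ± 49.1 CPM.

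A further list of 30 genes of sterol traffic, SREBP processing, liver X receptors and lipoprotein exchange was measured beside them, of which 28 passed the filter. On chow 1 of the 28 rose with anti-DBI and 3 fell, where 2.93% of all genes tested rose and 3.15% fell. Srebf1, which encodes the SREBP forms that chiefly drive fatty acid synthesis, was at 963.5, 1069, 692.0, 912.9 and 977.6 CPM in RCD IgG and at 333.6, 395.8, 440.1, 609.0 and 566.5 CPM in RCD anti-DBI. Its groups did not overlap (log2 fold change -0.97 ± 0.15 SE, edgeR adjusted p = 0.00195), in the opposite direction to Srebf2. Rnf145, a sterol-responsive ubiquitin ligase, fell by 0.55 on the log2 scale (adjusted p = 0.0131) and Stard5, a sterol-binding protein, by 0.27 (adjusted p = 0.0208).

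Under MCD with IgG 7 of the 28 rose and 13 fell, where 29.9% of all genes tested rose and 27.2% fell. Lrp1, a receptor for lipoprotein remnants, fell by 0.82 ± 0.08 SE on the log2 scale (edgeR adjusted p = 2.71e-07), from 1500 ± 153 CPM in RCD IgG to 845.9 ± 90.0 CPM in MCD IgG (SD, n = 5 and 10). Pltp, the phospholipid transfer protein of plasma, fell by 1.72 (adjusted p = 2.85e-07), and Nceh1, an esterase that frees cholesterol from its esters, rose by 0.91 (adjusted p = 4.31e-07). With anti-DBI under MCD 8 of the 28 rose and 5 fell, where 20.4% of all genes tested rose and 21.7% fell. Lcat, which esterifies cholesterol in plasma lipoproteins, rose by 0.56 ± 0.11 SE on the log2 scale (edgeR adjusted p = 0.000276), and Rnf145 fell by 0.42 (adjusted p = 0.000183). The median log2 fold change of the 28 in that comparison was 0.05, against 0.80 for the 20 synthesis genes.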

How the data were processed

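RNA of 30 liver samples was sequenced with a TruSeq kit that does not mark strand. The deposited file holds raw counts per gene, which the authors made, per the file header, with STAR on GRCm38, featureCounts and an Ensembl annotation. The study's methods name HISAT2 and GRCm39 instead, so coordinates are given on GRCm38, the build of the file's header. Its 30 columns of size-factor-scaled counts and its columns of fold changes and p-values were not used. The library labels gave the 4 groups.

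Counts were filtered (filterByExpr), TMM-scaled and tested with edgeR 4.0.16 in R 4.3.3 (estimateDisp, glmQLFit, glmQLFTest) over all genes, each comparison in a fit of its own 2 groups and the interaction over all 30 libraries. P-values were adjusted by Benjamini-Hochberg, with a threshold of 0.05. The SE is the log2 fold change over the root of F. The script was tested on simulated counts with known changes.

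The 32 genes, the marker lists and the 30 related genes were chosen with earlier results of these data known. Values by liver are given for the 4 genes with the smallest p that passed in each comparison and for those that passed against most of their role; genes that passed nowhere have group means, and 3 related genes are named per comparison for the first 3, except 1 that is not reported here. The other genes with values by liver were added to these after their values were seen. Alternatives were DESeq2 1.42.0, RLE and upper-quartile scaling, no filter, at least 10 counts in every library, limma 3.58.1 on log2(CPM + 1), the replicate number as a block, 1 fit of all 30 libraries, MCD anti-DBI 5 and 10 summed, and each library left out.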

Additional observations from a re-analysis of the deposited data

Results flagged for a closer look

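In groups of 5 or 10 livers, 8 of 128 combinations of gene and group had a liver whose gap to its nearest neighbour passed Dixon's limit, where chance flags about 1 in 20. RCD anti-DBI 4 was the highest of its group for Pmvk (73.5 CPM, the next being 46.6), Mvd (24.2, next 16.9) and Fdps (19.9, next 12.3). RCD anti-DBI 1 was the highest for Insig2 (187.6 CPM, next 119.8) and Hsd17b7 (80.8, next 67.0) and the lowest for Mylip (9.46, next 14.7) and Abcg1 (9.98, next 13.4). In MCD anti-DBI, liver 9 was the highest for Scap (191.6 CPM, next 163.5).

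The antibody's effect differed between the diets in 16 genes by the interaction test. Its log2 values were positive for Insig1 (1.42), Fdps (1.41), Stard4 (1.41), Msmo1 (1.08), Tm7sf2 (1.06), Nsdhl (0.87), Cyp51 (0.86), Fdft1 (0.73), Ebp (0.72), Sc5d (0.72), Acat2 (0.69), Hsd17b7 (0.66), Ggps1 (0.48) and Scap (0.43), and negative for Insig2 (-0.93) and Abcg1 (-0.75).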

How the results depend on the processing

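Over the alternatives, 4078 of 4224 gene results kept their side of the threshold, 98 lost the call, 48 gained one and 0 called results changed sign. Results that passed neither as fitted nor under the alternative count as kept even where their sign changed, as for Fdps on chow (log2 fold changes of -0.238 to 0.151 on leaving out a library). On chow the counts were the least stable: 3 genes rose in the fit reported, but 1 in a fit of all 30 libraries and 1 to 3 on leaving out a library, and 1 fell, but 0 with upper-quartile scaling, with the replicate block or in the fit of all 30, and 0 to 1 on leaving out a library. Same-numbered livers did not deviate together (correlations of -0.207 to 0.171 over all pairs of groups), and the numbers were not taken as pairs. With the replicate block 2 genes rose on chow, 5 rose and 16 fell in MCD IgG against RCD IgG, 22 rose and 1 fell in MCD anti-DBI against MCD IgG, 15 were higher and 5 lower in MCD anti-DBI against RCD IgG, and 13 interactions were positive and 2 negative. Leaving out a library gave 4 to 5 genes higher and 12 to 16 lower for the diet, 21 to 23 higher for the antibody under MCD, 8 to 12 higher and 5 to 6 lower for both together, and 11 to 18 positive interactions. Upper-quartile scaling moved the median of all genes from 0.03 to 0.10 (log2) for the diet and from 0.00 to -0.07 in the interaction, where 12 of the 32 genes were then positive and 3 negative. Genes that passed in no comparison as fitted passed in 1 under some setting: Lbr for the diet with the replicate block (adjusted p = 0.00533), in the fit of all 30 (0.0496) and without MCD IgG 10 (0.0306), Mylip for the diet with upper-quartile scaling (0.0376), and Abcg8 in MCD anti-DBI against RCD IgG with the block (0.0167). The lowest count of any of the 32 genes in a library was 55, and depth as a limit was not tested.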
